A study of Danio rerio with 2 samples.

Results

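Fatty acid-binding proteins are small proteins of the cytosol that hold long-chain fatty acids, bile acids and related lipids in a barrel-shaped pocket. They carry these lipids between membranes and enzymes, and some of them hand fatty acids to PPARs, the nuclear receptors that switch on genes of lipid use. Each vertebrate tissue that handles much fat uses its own members of the family, so the genes are widely used as marks of intestine, liver, muscle, heart and brain. Zebrafish hold several of these genes as a pair of copies that stem from the genome duplication of bony fishes.

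The genes described here were picked by symbol, as all probes named in the files for fabp1b.1, fabp2, fabp3, fabp4b, fabp6, fabp7a, fabp7b, fabp10a or fabp11b. These 9 names stand for 8 genes, because the RefSeq gene table gives fabp11b as an older symbol of fabp4b, and the probe concerned carries the older name in the files. In all 17 of 43553 probes were found, for 8 of 27190 genes and unnamed targets. The files place fabp2 on chromosome 1, fabp1b.1 on chromosome 8, fabp4b and fabp10a on chromosome 16, fabp7a on chromosome 17, fabp3 on chromosome 19, fabp7b on chromosome 20 and fabp6 on chromosome 21, without naming an assembly.

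RNA came from Tg(RE:HSE:EGFP) embryos of the F2 generation and from wild type (WT) embryos, both of the AB strain. In the Tg(RE:HSE:EGFP) line a heat shock promoter works in both directions and is not confined to a tissue. It drives EGFP on one side and human RUNX1-Evi-1, a leukaemia fusion gene, on the other. No selection by EGFP is described for the embryos of the arrays, although fish of the founder generation were screened for it. The study reports EGFP in most but not all F2 offspring after heat shock. Embryos without EGFP may thus be among those of the Tg array. Both groups had been heat shocked at 38 °C for 1 hour, so heat is shared and only the transgene differs by design. The labels place both groups at 72 hpf, while the text on the design can be read as counting these hours from the heat shock. Total RNA was labelled with Cy3 and read on 1-colour Agilent arrays, and 1 array of each group was used here. The study speaks of triplicates, and the sources used here do not say whether an array stands for several.

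A single array stands for each group. There is thus no spread between embryos and no p-value, and any effect of batch cannot be told apart from that of the transgene. Differences are Tg(RE:HSE:EGFP) minus WT by the labels of the arrays, on the log2 scale, after each array's 75th percentile was subtracted. This direction opposes the one the study describes for hdac4. The brighter hdac4 probe was lower on the array labelled Tg (11.03, against 11.37 on the array labelled WT). So was a dimmer probe (6.70 on the array labelled Tg, against 7.88 on the array labelled WT). The levels that the study gives for hdac4 match neither probe. The groups are therefore called here by the labels of their arrays. Blood genes that the study also measured by PCR gave no single answer. On the Tg array the erythroid factor gene gata1a was lower by its brightest probe (-0.95), with its other probe at -0.29. The granulocyte gene mpx was higher by its brightest probe (0.75), with its 4 probes between -0.025 and 0.75. The myeloid factor gene spi1b was at 0.46 by its brightest probe and at -0.425 by its other. The study's PCR ran the same way for gata1 and the opposite way for mpo, the older name of mpx. It had pu.1, another name of spi1b, higher, while the probes of spi1b ran both ways. The study also describes erythropoiesis as lowered. Of 15 erythrocyte genes above background, 12 were below 0 and 3 above, with a median of -0.53. That median was -0.17 without the probe of largest difference. The arrays name no probe of the transgene itself, so the labels could not be checked by it. A probe was taken as above background where its log2 signal passed 6.70 on its array, the 95th percentile of 178 probes named as receptors for odours, tastes or trace amines. Of all genes, 16237 passed on at least 1 array, and their median difference was -0.03. As a measure of how far probes agree, the differences of several probes of 1 gene had a pooled SD of 0.28. It was taken over 5911 genes with 2 or more probes above background on both arrays. This SD holds no variation between embryos and no error shared by all probes of an array, and cannot show that the groups differ. The study's methods describe total RNA of embryos, although its results place the differing genes in blood cells of larvae. In total RNA of whole embryos, fewer cells of a type and less RNA per cell cannot be told apart.

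Genes at least 2-fold higher on the Tg array made up 4.7% of the 16237 genes, and genes at least 2-fold lower 3.52%. Of the 8 fatty acid-binding protein genes, 7 were above background on at least 1 array, and 3 of these 7 passed 2-fold toward Tg. The 3 were fabp4b and both brain-type genes, fabp7a and fabp7b. None was 2-fold lower. The genes were chosen with earlier results of these data known, so these counts are a description and not a test. The liver gene fabp10a was above background on the Tg array alone, fabp1b.1, fabp2 and fabp3 differed by less than 2-fold, and fabp6 was not above background on either array. Over all 8 genes, with no regard to background, the median difference was 0.83. That median takes in values of fabp6 and fabp10a below the background limit. Over the 7 genes above background, with fabp10a at its bound, the median was 0.74. The same median over all genes above background, with bounds, was -0.02. The value of 0.74 is the bound of fabp10a itself. That gene passed on the Tg array alone and so could only come out higher there.

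**Figure D1:**
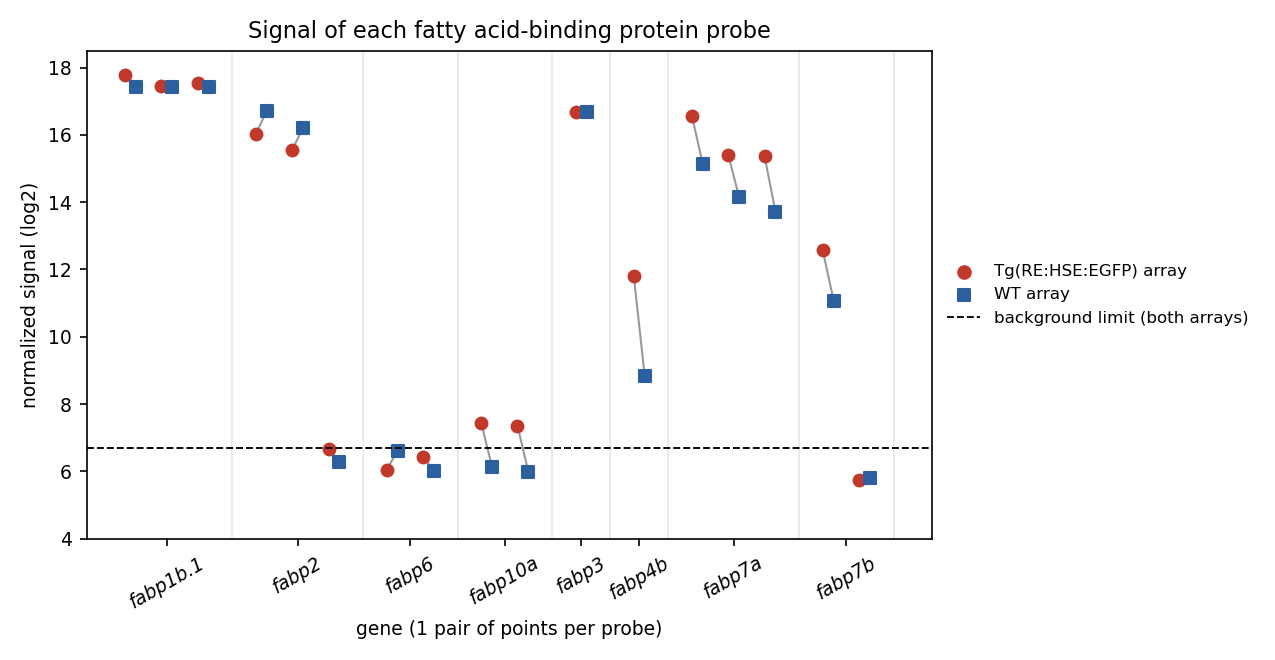
Normalized log2 signal (vertical axis) of all 17 probes of the 8 genes, 1 pair of points per probe, with the Tg(RE:HSE:EGFP) array as circles on the left of each pair and the WT array as squares on the right; the dashed line is the background limit of 6.70. The Tg point lies above the WT point for fabp4b, for all 3 fabp7a probes and for the bright fabp7b probe, and below it for both bright fabp2 probes.

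The largest difference in the family was that of fabp4b, listed in the files as fabp11b. In mammals the related FABP4 is the fatty acid-binding protein of fat cells and macrophages. The fabp4b probe had a log2 signal of 11.81 on the Tg array and 8.85 on the WT array, a difference of 2.96 or 7.79-fold. It was well clear of the background limit on both arrays, by 5.11 on the Tg array and 2.15 on the WT array. Its difference had rank 22 from the highest among the 16237 genes. Since 1 probe reads this gene, no other probe stands beside it.

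The duplicate of fabp4b is fabp4a, named fabp11a in the files, which was not among the chosen genes. Its brighter probe was at 14.05 on the Tg array and 13.80 on the WT array, 0.24 apart. Its other probe was at 13.09 on the Tg array and 12.86 on the WT array, a difference of 0.23. Neither fabp4a probe came near 2-fold. Among markers of macrophages and granulocytes, 9 of 10 genes on the arrays were above background. Their median was 0.61 by the brightest probes and 0.34 with the mean over all probes. Of them 1, the lysozyme gene lyz (1.25), was at least 2-fold higher on the Tg array. The summed level of these 9 genes was 14.88 on the Tg array and 14.25 on the WT array, or 14.21 on the Tg array and 13.85 on the WT array without lyz. Their part in the difference of fabp4b was not tested.

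The brain-type genes fabp7a and fabp7b encode the fatty acid-binding protein of radial glia, the stem cells of the neural tube. This protein binds the fatty acid DHA. The brightest fabp7a probe had 16.57 on the Tg array and 15.13 on the WT array, a difference of 1.43 or 2.70-fold. The values of the remaining pair of probes were 15.41 on the Tg array and 14.15 on the WT array (1.26) for one, while for the other they were 15.37 on the Tg array and 13.71 on the WT array (1.66). All 3 probes passed 2-fold in the same direction. They were read on the same arrays, so their spread holds no variation between embryos.

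The bright probe of fabp7b had 12.58 on the Tg array and 11.08 on the WT array, a difference of 1.5 or 2.83-fold. Its size was close to that of fabp7a, at rank 277 from the highest, while fabp7a had rank 313. A second fabp7b probe was not above background, at 5.75 on the Tg array and 5.79 on the WT array. That probe was designed on a cDNA end read, and its coordinates in the files run in the opposite direction to those of the bright probe, 1252 bases away. With the mean over both probes the difference of fabp7b was 0.73 and no longer reached 2-fold.

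All 15 genes on the arrays from the list of radial glia and neural progenitors were above background, and none differed by 2-fold. By their brightest probes 5 were above 0 and 10 below, with a median of -0.25. The median was -0.02 with the mean over all probes and -0.05 without the probe of largest difference, so the list had no lean that held across probes. The intermediate filament gene gfap was at 11.54 on the Tg array and 11.91 on the WT array by its brightest probe (-0.37), with its 4 probes between -0.37 and 0.33. The stem cell factor gene sox2, read by 1 probe, was at 12.14 on the Tg array and 13.13 on the WT array (-0.99). The summed level of the list was 17.45 on the Tg array and 17.85 on the WT array. Without its brightest gene, the glutamine synthetase gene glulb, it was 16.44 on the Tg array and 16.69 on the WT array. The highest differences were those of sox9b, a factor of glial fate (0.70, with its other probe at -0.13), and slc1a2b, a glutamate transporter gene (0.61, with its 3 probes between 0.16 and 0.71).

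The gene fabp1b.1 encodes a liver-type protein that zebrafish use in the intestine. Its 3 probes were at 17.79, 17.44 and 17.53 on the Tg array, and at 17.43, 17.42 and 17.41 on the WT array. The differences were 0.36, 0.02 and 0.12. These signals were among the brightest on arrays whose highest value was 19.2, and the files carry no flags for saturated spots. Of 162 genes with a mean above 17, 3 were at least 2-fold higher on the Tg array and none was 2-fold lower.

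The tandem neighbour of fabp1b.1, fabp1b.2, was not among the chosen genes and was named only through its RefSeq accession. Its 1 probe had 9.23 on the Tg array and 7.93 on the WT array, a difference of 1.30 or 2.47-fold. Whether the probes of these neighbours also read each other's transcripts was not tested. The 3 probes of fabp1a, the other copy of the liver-type gene, were not above background on either array, with the brightest at 5.73 on the Tg array and 5.98 on the WT array.

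Intestinal fabp2 encodes the protein that binds fatty acids taken up by enterocytes. It was the lowest of the measured genes relative to WT, at 16.03 on the Tg array and 16.71 on the WT array, a difference of -0.68. Its second bright probe had 15.56 on the Tg array and 16.21 on the WT array (-0.65). The bright probes of fabp2 were thus 1.60-fold and 1.57-fold higher on the WT array, short of 2-fold. A probe designed on a cDNA end read was not above background, at 6.68 on the Tg array and 6.28 on the WT array.

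Ileal fabp6, the bile acid-binding protein also called gastrotropin, was not above background on either array. Its RefSeq probe had 6.05 on the Tg array and 6.62 on the WT array, and its other probe, whose coordinates run in the opposite direction, 6.44 on the Tg array and 6.02 on the WT array. No difference can be given for this gene. Of 10 genes of bile acid handling on the arrays, 4 were above background, none at 2-fold. Their median of 0.31 was 0.11 with the mean over all probes and -0.05 with the 99th percentile as background limit, so no direction can be given. The ileal bile acid transporter gene slc10a2, the bile acid receptor gene nr1h4 and fgf19, the hormone gene of the ileum, were below the limit on both arrays.

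Of 19 intestine markers on the arrays 11 were above background, with a median of -0.06, and 1 was at least 2-fold higher on the Tg array. This was agr2, a folding enzyme of mucus-secreting cells, at 14.10 on the Tg array and 12.72 on the WT array. The brush border gene vil1 (6.83 on the Tg array and 6.94 on the WT array) was close to the limit, and the peptide transporter gene slc15a1b was below it. The summed level of the 11 genes was 14.65 on the Tg array and 13.99 on the WT array, and agr2 alone set its direction. Without agr2 the other 10 summed to 12.99 on the Tg array and 13.21 on the WT array.

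The liver gene fabp10a encodes the basic bile acid-binding protein of hepatocytes in fish. Its probes had 7.45 and 7.36 on the Tg array, and 6.13 and 5.98 on the WT array. The measured differences were 1.32 and 1.37, and the WT values of both probes were below the background limit. The difference is therefore known only as a bound. Against the lowest signal above background, fabp10a was at least 1.67-fold higher on the Tg array. This bound does not reach 2-fold, so fabp10a is not counted among the genes at 2-fold, and a gene seen on the Tg array alone could only come out higher there. Its duplicate fabp10b, with 1 probe, was at 7.79 on the Tg array and 7.77 on the WT array.

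Liver markers were measured beside fabp10a. Of 20 on the arrays 18 were above background, with a median of 0.39 (0.31 with genes seen on 1 array at their bounds), and 3 were at least 2-fold higher on the Tg array. These were the fibrinogen chain genes fgg (1.58) and fga (1.01, read by 1 probe) and the complement gene c3a.1 (1.06). Other hepatocyte genes were on the other side of 0, such as the transferrin gene tfa at 16.55 on the Tg array and 17.13 on the WT array by the brightest of its 6 probes, which ran between -0.64 and 0.36. The summed level of the 18 genes was 19.00 on the Tg array and 18.88 on the WT array, and without rbp4, the brightest, 18.26 on the Tg array and 18.29 on the WT array. How far the number of liver cells bears on fabp10a was not tested.

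In mammals FABP3 is the fatty acid-binding protein of heart and skeletal muscle, and the files describe fabp3 as the gene of muscle and heart. Its 1 probe had 16.68 on the Tg array and 16.69 on the WT array, a difference of -0.01. The values of fabp3 were thus nearly the same on both arrays, with no measure of their spread between embryos. Skeletal muscle genes had a median of 0.66. At 2-fold, 6 of the 23 above background were higher on the Tg array and 1 was lower. The 10 heart genes had a median of -0.05, with none at 2-fold.

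**Figure D2:**
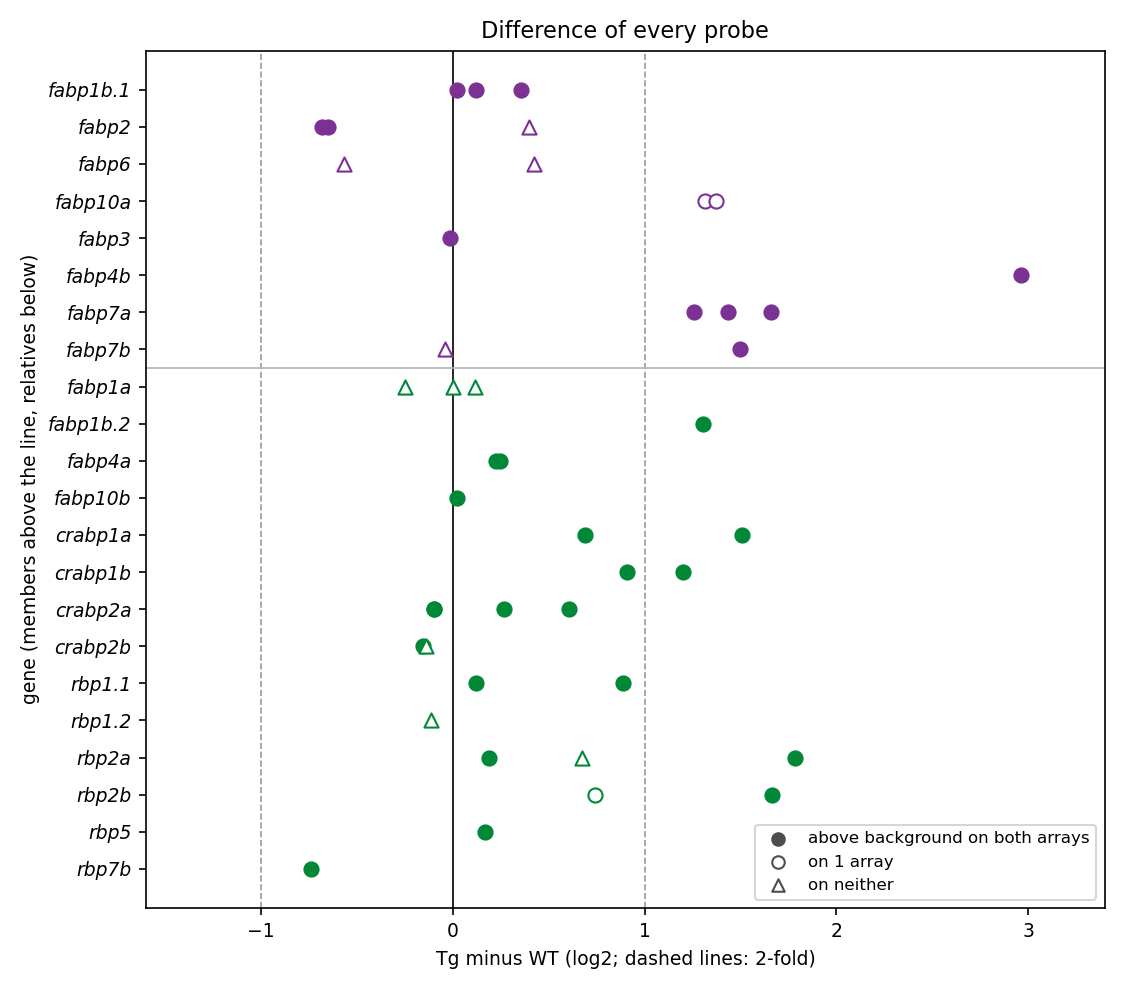
Difference of every probe (Tg minus WT, log2, horizontal axis; dashed lines at 2-fold) for the 8 genes above the line and for their relatives below it, with filled circles for probes above background on both arrays, open circles for probes above it on 1 array and triangles for probes on neither. The fabp4b probe stands at 2.96 and the fabp7a probes between 1.26 and 1.66, while its duplicate fabp4a lies at 0.23 and 0.24.

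Copies of a gene did not have like values in every pair. In the fabp7 pair both copies were more than 2-fold higher on the Tg array by their bright probes. Of the fabp4 pair fabp4b alone reached 2-fold, and the liver-type genes fabp1b.1 and fabp1b.2 differed by 0.36 and 1.30. These contrasts rest on 1 probe for fabp4b and 1 for fabp1b.2. No test of them is possible with 1 array per group.

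The retinoid-binding proteins belong to the same protein family and carry vitamin A and its derivatives. Of 10 such genes on the arrays 9 were above background, 2 stood 2-fold or more above WT and none as far below it, with a median of 0.17 by the brightest probes and 0.50 with the mean over all probes. The cellular retinol-binding genes rbp2a and rbp2b were those at 2-fold. The brightest rbp2a probe had 10.12 on the Tg array and 8.34 on the WT array (1.78), and another, close to the limit, differed by 0.19. For rbp2b the values were 12.57 on the Tg array and 10.90 on the WT array (1.67). Dimmer probes of rbp2a and rbp2b that were below the limit on at least 1 array gave smaller values, of 0.68 and 0.74. The coordinates of both run in the opposite direction to those of the bright probes. The retinoic acid-binding genes crabp1a and crabp1b had 0.69 and 0.91 by their brightest probes, and their other probes reached 1.51 and 1.2.

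**Figure D3:**
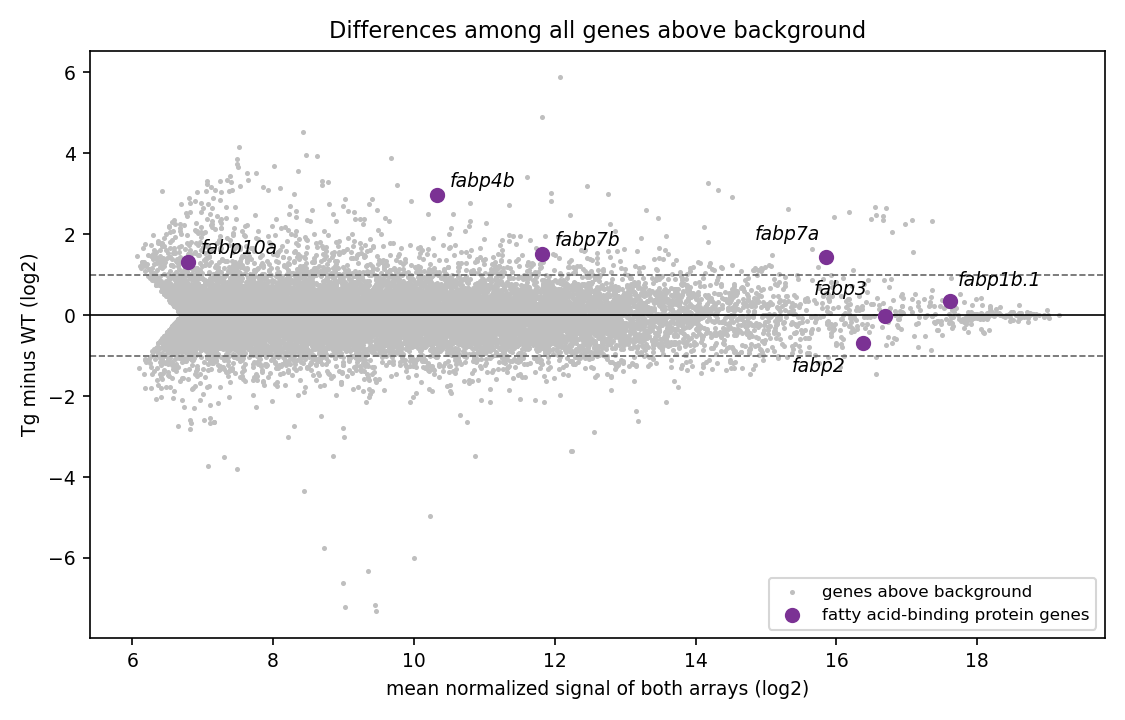
Difference (Tg minus WT, log2) against the mean log2 signal of both arrays for the 16237 genes above background on at least 1 array (grey), with the 7 fatty acid-binding protein genes among them in purple and dashed lines at 2-fold. The genes fabp4b, fabp7a and fabp7b lie above the upper line with both signals measured, and fabp10a lies above it at the dim end, where its WT signal was below background.

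Around the binding proteins stand the genes that bring fatty acids into cells and activate them. All 18 on the arrays were above background, with 14 below 0 and 16 under 2-fold. Their median was -0.26, and -0.16 with the mean over all probes. The fatty acid receptor gene cd36, read by 1 probe, was 2-fold lower, at 9.60 on the Tg array and 10.86 on the WT array (-1.25). So was slc27a2a, an acyl-CoA synthetase and transporter gene, at 14.64 on the Tg array and 15.71 on the WT array (-1.07), with its other probes between -1.27 and -0.66. None of the 18 was 2-fold higher. The acyl-CoA-binding gene dbi, another carrier of fatty acids in the cytosol, was at 16.37 on the Tg array and 16.41 on the WT array.

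PPARs act as pairs with the RXR receptors, and 6 of the 11 receptor genes on the arrays were above background. Of these pparda was above background on the WT array alone, by its 1 probe, and so could only come out lower on the Tg array (6.61 on the Tg array and 7.87 on the WT array, at least 2.24-fold lower). The 5 receptor genes seen on both arrays had a median of -0.28 by their brightest probes, between -0.79 and -0.14. Their probes did not all run one way. Those of pparaa lay between -0.37 and 0.30, and rxrba and rxrgb each had a probe just above 0 (0.04 and 0.03). The pparg probe was not above background (5.98 on the Tg array and 5.97 on the WT array).

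Genes known in mammals as PPAR targets of lipid use were measured too. Of 21 above background 17 had a difference above 0, with a median of 0.34 (0.24 with the mean over all probes), and 2 were at least 2-fold higher on the Tg array. These were pck1, of glucose and glycerol synthesis (1.5), and cpt1b, which admits fatty acids to muscle mitochondria, at 8.05 on the Tg array and 6.80 on the WT array (1.25). The 1 probe of cpt1b was close to the background limit on the WT array. Below 2-fold were the acyl-CoA dehydrogenase genes acadl (0.96) and acadm (0.76), with ehhadh (0.81) and acaa2 (0.795) between them. The list shares 2 genes with that of uptake and activation.

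Genes that pack fat into lipoproteins were split. Of 18 above background 11 were above 0 and 7 below, with a median of 0.05. The gene dgat2, which makes triglyceride and is read by 1 probe, was at 10.21 on the Tg array and 9.11 on the WT array (1.11). The apolipoprotein gene apoa4a was lower by both probes, with 13.15 on the Tg array and 14.45 on the WT array for the brighter one (-1.30). For mttp, the transfer protein that loads fat onto apolipoprotein B, the brightest of 6 probes had 10.90 on the Tg array and 11.03 on the WT array.

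**Figure D4:**
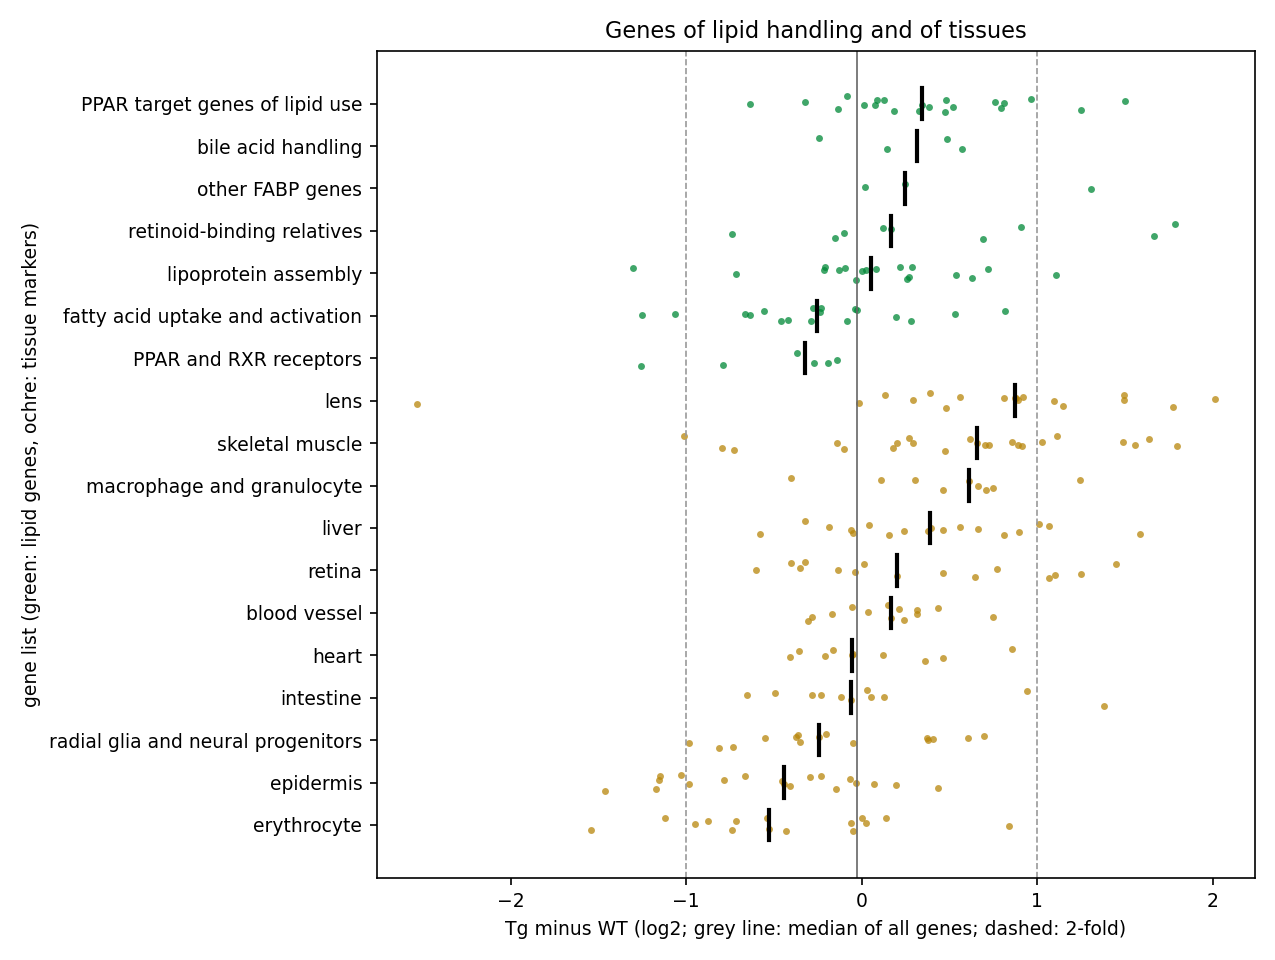
Difference (Tg minus WT, log2) of each gene above background in 18 lists, 7 of lipid handling and 11 of tissue markers, with black bars at the list medians, a grey line at the median of all genes and dashed lines at 2-fold. Medians run from -0.53 for erythrocyte genes to 0.87 for lens genes, with liver at 0.39, intestine at -0.06 and radial glia at -0.25.

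All 11 tissues had markers above background on the arrays. The medians of their differences lay above that of all genes in 6 lists and below it in 5. Lens genes had the highest median (0.87, with 5 of 18 at least 2-fold higher and 1 lower). The lowest were those of erythrocyte and epidermis genes (-0.53 and -0.44), whose order turned with the mean over all probes (-0.35 and -0.74). The part of tissue makeup in the differences of the fatty acid-binding protein genes was not tested.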

How the data were processed

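The authors labelled total RNA of Tg(RE:HSE:EGFP) and WT embryos with Cy3, hybridized it to Agilent zebrafish arrays and took the signals from the scans with Feature Extraction. The deposited values, per the file headers, are normalized signal intensities on the log2 scale, 1 per probe and array. How the signals were normalized, and with which version of the tool, is not given in the sources. The table of the series held the same values at all 43553 probes. They came without flags for background or saturation, without control spots, and without a second array per group, so no test across genes was run and the number of arrays limits the precision.

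From each array the 75th percentile of its own values was taken away, a shift of -0.001 in every difference. Probes were named through RefSeq accessions in the gene table of the reference (26445 probes), current symbols (2593) or older symbols (1603). A further 4753 kept the name in the files and 8159 stayed unnamed. Each gene's values are those of its probe with the highest mean. Where both arrays passed the background limit, the measured difference decided whether a gene counted at 2-fold. Where 1 did, a bound decided, which sets the dim array at its lowest signal past the limit, or at the probe's own signal if that is higher. Levels are compared between arrays for the same probe, not between probes. The summed level of a marker list adds the linear signals of its genes above background, so its brightest gene can set it. It was therefore also taken without that gene, a choice made after seeing the data.

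The members and all 18 lists were chosen with earlier results of these data known. The genes named are the 8 members with every probe, the other fatty acid-binding protein genes, and from the lists of lipid genes, liver, intestine, glia and heart those at 2-fold, up to 4 in each direction. Genes below 2-fold that are named beside them, and the genes of the other lists that are named or left out, were chosen after their values were seen. Alternatives were other scalings, probe rules, filters and thresholds. The steps were tested on simulated data. Python 3.11.15, numpy 2.4.6, pandas 2.3.3 and matplotlib 3.10.9 were used.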

Additional observations from a re-analysis of the deposited data

How the results depend on the processing

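The count of 3 genes at least 2-fold higher on the Tg array comprised fabp4b, fabp7a and fabp7b under other scalings, with the probe of largest difference left out for genes that keep another above background, with the 99th percentile as background limit, with the filter set to both arrays, and with the table of the series. It was 2 with the mean over all probes, without fabp7b, beside 3.82% of all genes. With no filter it was 4, with fabp10a, beside 3.45% of all genes. Under the settings that kept the count at 3, the share of all genes ran from 3.82% to 4.79%. At a threshold of 4-fold 1 gene was higher, fabp4b, beside 0.684% of all genes. At 1.5-fold 4 were higher and 1, fabp2, was lower, beside 12.3% and 12.5% of all genes, so the count of 1 is near the share of all genes. The median of the genes above background was 1.32, the measured difference of fabp10a itself, which its own filter favours. It was 0.73 with the mean over all probes, 0.89 with the 99th percentile or with the filter set to both arrays, and 0.83 with no filter. Of 72 values of single genes under these settings, 69 moved by less than the pooled SD of 0.28 between probes. The others were fabp2 (-0.31), fabp6 (-0.07) and fabp7b (0.73) with the mean over all probes, which takes in probes below background. Most of the 72 values could hardly move, so their count is no measure of robustness. The filters and the table of the series kept each gene's probe and values, and the scalings shifted all differences only slightly. Probe rules could not change fabp3 and fabp4b, with 1 probe each. Some medians of lists moved too. With the mean over all probes they were 0.50 for retinoid-binding genes and -0.74 for epidermis. That of radial glia was -0.02 under this rule, a move smaller than the pooled SD. Without the probe of largest difference that of erythrocyte genes was -0.17. With the 99th percentile they were -0.05 for bile acid handling, 0.77 for the other fatty acid-binding protein genes and 0.64 for retina. The summed levels of liver, intestine and heart markers turned direction without their brightest gene (-0.03, -0.22 and -0.08, against 0.12, 0.66 and 0.16 with it). No paired analysis was possible because each group has 1 array. Dim probes limit fabp6 and fabp10a, and 1 probe each limits fabp3 and fabp4b.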
